A study of Mus musculus with 6 samples.

Results

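The Hox cluster genes are the 39 mouse genes named Hoxa, Hoxb, Hoxc or Hoxd with a number behind the name, out of 49993 genes in the RefSeq table of the mm10 genome. They lie in 4 clusters: 11 Hoxa genes on chromosome 6, 10 Hoxb genes on chromosome 11, 9 Hoxc genes on chromosome 15 and 9 Hoxd genes on chromosome 2. All peaks that overlapped one of these genes, or the 10 kb on either side of it, were taken, and merging them over the libraries gave 58 regions of 64817 in all. Because the genes are closely packed, most windows overlap and neighbouring Hox genes share regions.

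The chromatin came from regulatory T cells (Tregs), the suppressive CD4+ T cells defined by the transcription factor Foxp3, and was probed by ATAC-seq, in which the Tn5 transposase cuts and tags open DNA. Wild-type (WT) animals were C57BL6 mice, and knockout (KO) animals were il33-/- mice on the C57BL6 background, which lack the cytokine interleukin-33. Both groups carried B16.F10, a transplantable mouse melanoma, injected under the skin as 300000 cells, and CD4+CD25+GITR+ cells were sorted from the tumour-draining lymph nodes on day 14. Each genotype gave 3 libraries, numbered 2, 4 and 6 for WT and 1, 2 and 4 for KO. Age and sex are not stated in the labels, and neither is whether each library is a separate mouse, so a p-value here speaks of the spread among libraries and that spread may be technical.

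Hox genes encode homeodomain transcription factors that tell embryonic cells their position along the body axis, and each cluster is ordered from low-numbered genes, used early and towards the head, to high-numbered genes, used late and towards the tail. Outside the tissues that use them, the clusters are classic targets of Polycomb complexes, which keep genes silent, while Trithorax proteins such as Kmt2a keep them active. In blood, genes such as Hoxa9 and Hoxb4 are known for their role in stem and progenitor cells, and Hox expression generally falls as blood cells mature.

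Depth differed between the genotypes. The WT libraries held 12.9 to 15.2 M (mega) tags after removal of duplicates and 52836 to 55939 peaks, and the KO libraries 4.72 to 10.3 M tags and 37266 to 42738 peaks, so the mean KO list was 0.756 of the mean WT list. Genotype and depth therefore cannot be told apart in any difference below. All 8 T cell and Treg marker genes, Foxp3 and Cd4 among them, had a region called in all 6 libraries. The B cell gene Ms4a1, the myeloid genes Lyz2 and Csf1r, the melanocyte genes Tyr and Dct and the stromal gene Ccl19 had no region in any library. Of the same lists, Cd79a had 3 regions called in all 6 libraries, Cd14 2, Pmel 3 and Pecam1 8. In all, 3 of 5 B cell, 3 of 5 myeloid, 2 of 5 progenitor, 3 of 5 melanoma and 4 of 6 stromal markers had one. So did 65.5% of protein-coding genes. At Il33 itself every library had 1 peak within the gene, and since the labels do not say which part was deleted this checks no label.

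Tregs had accessible regions in all 4 clusters, unevenly spread. Every one of the 39 genes had a region called in at least 1 library in its window, beside 74.2% of 21883 protein-coding genes. In 24 of the 39, 61.5%, a region was called in all 6 libraries, beside 65.5% of protein-coding genes. Within the genes themselves the share was lower: 9 of 39 Hox genes, 23.1%, overlapped a region called in all 6 libraries, beside 57.8% of protein-coding genes. This comparison was not matched for gene length. Among the 9 were Hoxa3, Hoxb3 and Hoxd3, with long spans of 44009, 40830 and 36279 bp that cover other Hox genes. By genes with a region called in all 6 libraries in the window, Hoxa had 10 of 11, Hoxb 8 of 10, Hoxc 3 of 9 and Hoxd 3 of 9.

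**Figure D1:**
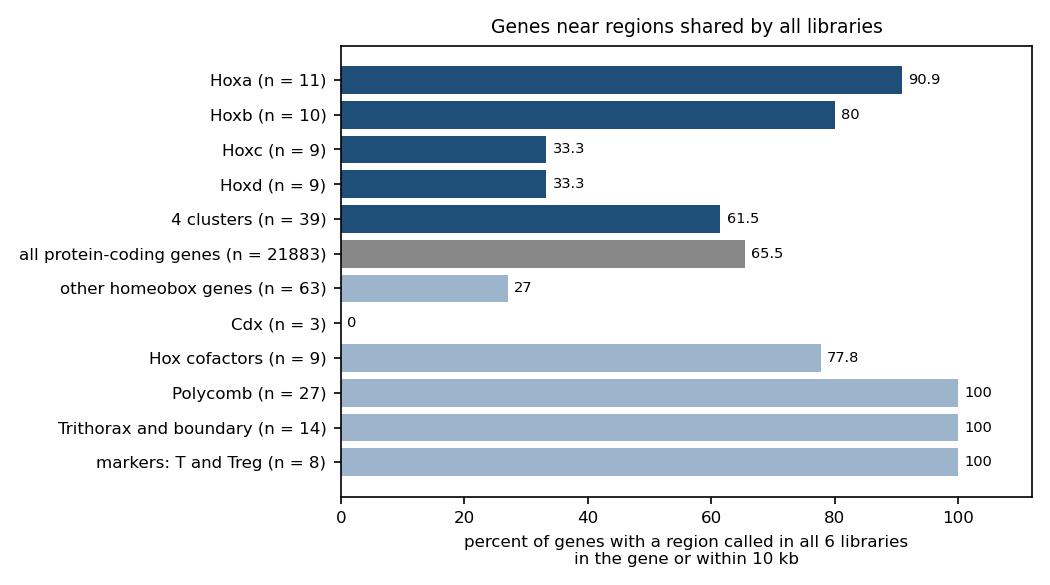
Percent of genes with a region called in all 6 libraries within the gene or 10 kb around it (x axis), for each Hox cluster, the 4 clusters together, all protein-coding genes and comparison lists, with the number of genes in brackets. Hoxa and Hoxb stand at 90.9% and 80.0%, Hoxc and Hoxd both at 33.3%, and all protein-coding genes at 65.5%.

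Regions were dense in the clusters, but a smaller share of them than of all regions was called in all libraries. The Hox windows held 1.12 regions per 10 kb, against 0.386 in the windows of all protein-coding genes. For regions called in all 6 libraries the densities were 0.271 and 0.183 per 10 kb. Only 14 of the 58 regions, 24.1%, were called in all 6 libraries, where 45.4% of all regions were, and 17, or 29.3%, were called in a single library, where 17.5% of all regions were. Height is given here as scaled pileup, the number of tags stacked at the summit of a peak divided by the median of that library's whole list, so that a value of 1 is a typical peak. Over the 14 shared regions the median scaled pileup was 1.4, with a range of 0.658 to 2.02, and over the shared regions of all protein-coding genes it was 1.63.

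Hoxa held the highest of these regions by scaled pileup. Its 5 shared regions had a median scaled pileup of 1.71 (range 1.34 to 2.02), those of Hoxb, also 5, had 1.44 (0.658 to 1.49), the 2 of Hoxc had 1.0 (0.811 to 1.19) and the 2 of Hoxd had 0.753 (0.697 to 0.808). The ranges of Hoxa and Hoxb overlapped, and that of Hoxd lay within the range of Hoxb. Ranked among all 29419 regions called in all 6 libraries, the highest Hox region stood at percentile 65.4 and the lowest, at Hoxb2, at percentile 8.19, so the Hox regions were of ordinary to low height.

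**Figure D2:**
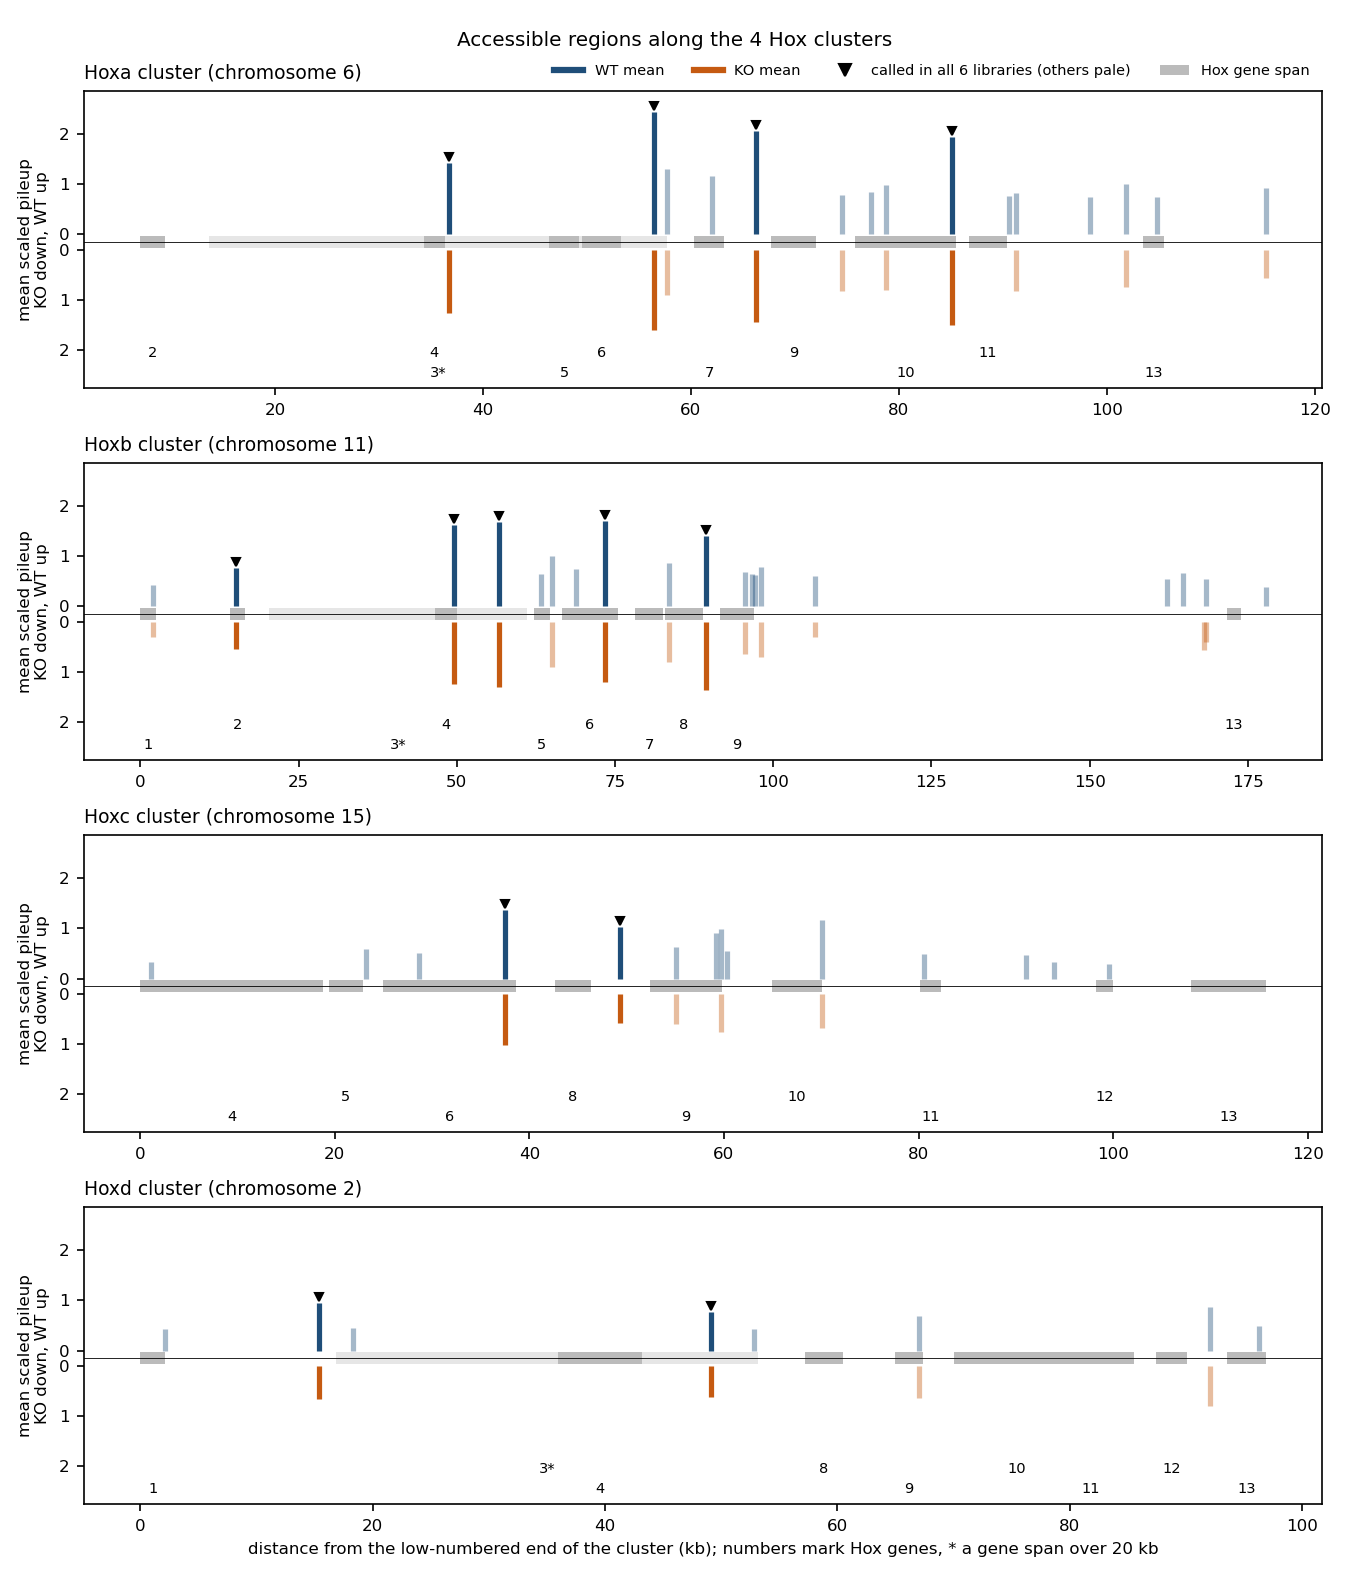
The 4 clusters drawn from the low-numbered end (x axis, kb). Vertical lines give the mean scaled pileup of the libraries in which a region was called, WT upwards and KO downwards; dark lines with a triangle mark regions called in all 6 libraries, pale lines the others, and grey boxes the Hox genes. Shared regions lie in the low-numbered and middle parts of Hoxc and Hoxd, and reach Hoxa10 and the stretch between Hoxb8 and Hoxb9 in the other clusters.

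In which part of a cluster the chromatin was open differed between clusters. Each cluster was cut by length into 3 equal parts, for Hoxb from Hoxb1 to Hoxb9. In Hoxa the low-numbered part held 1 region, the middle part 5 and the high-numbered part 9, of which 1, 3 and 1 were called in all 6 libraries. In Hoxb the counts were 2, 3 and 7 regions, with 1, 2 and 2 in all libraries. Both clusters thus had a shared region in each of the 3 parts, and of these parts the high-numbered one held the most regions of any kind. The shared regions did not run along the whole length, since each cluster also had a long stretch without any region, given below.

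Hoxc and Hoxd were accessible in all libraries only outside their high-numbered parts, and not at their lowest-numbered genes. The nearest shared region lay 18.3 kb from Hoxc4, 14.2 kb from Hoxc5 and 12.8 kb from Hoxd1. Hoxc had 4, 6 and 4 regions in the low-numbered, middle and high-numbered parts, of which 1, 1 and 0 were called in all 6 libraries, and Hoxd had 3, 2 and 3, of which 1, 1 and 0 were. These shared regions depended on the threshold: in equal-length lists Hoxc had 2 and Hoxd 0, and at the stricter threshold each had 1. The longest stretch without a shared region was 66.1 kb in Hoxc and took in all of Hoxc9, Hoxc10, Hoxc11, Hoxc12 and Hoxc13. In Hoxd it was 47.5 kb and took in all 6 genes from Hoxd8 to Hoxd13. The corresponding stretches were 32.7 kb in Hoxa, where it covered Hoxa2, Hoxa4 and part of the long Hoxa3 span, and 33.4 kb in Hoxb, where it covered no whole gene. Neither the Hoxa nor the Hoxb stretch had a peak in any library.

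The high-numbered ends were not without peaks. At Hoxa13, a gene of limb and genital development, no region was called in all libraries, but one between Hoxa11 and Hoxa13 was called in 5 of 6 (scaled pileup 1.0, 1.15 and 0.897 in WT 2, 4 and 6, and 0.8 and 0.696 in KO 1 and 4). Hoxb13, which lies 74.7 kb from Hoxb9, had 5 regions in its window, none called in more than 2 libraries. Hoxc13 had 1, called in WT 4 alone. Between Hoxd12 and Hoxd13 a region was called in all WT libraries and in KO 1 (1.25, 0.704 and 0.621 in WT, 0.8 in KO 1).

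The highest Hox region of all lay between Hoxa6 and Hoxa7, at chr6:52211399-52212320, inside the span of the long Hoxa3 gene model and of the antisense RNA gene Hoxaas3. Its scaled pileup was 2.57, 2.56 and 2.21 in WT 2, 4 and 6 and 1.75, 1.31 and 1.74 in KO 1, 2 and 4. Every WT library stood above every KO library. The next in height, at chr6:52221320-52222009, lay between Hoxa7 and Hoxa9, in none of the annotated genes, with 1.93, 2.19 and 2.07 in WT and 1.5, 1.25 and 1.61 in KO. Here too the genotypes did not overlap. Both neighbours of this stretch, Hoxa7 and Hoxa9, are among the Hox genes best known from blood progenitors.

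Other shared Hoxa regions lay at Hoxa10 and between Hoxa4 and Hoxa5. The region at chr6:52240186-52240806, in Hoxa10, a gene of uterine and blood development, had a scaled pileup of 1.93 in each of the 3 WT libraries and 1.4, 1.56 and 1.52 in KO. The region at chr6:52191707-52192481 lay just before the start of Hoxa4, 4 bp from it, and within the span of Hoxa3, and had 1.25, 1.70 and 1.28 in WT and 1.5, 1.19 and 1.13 in KO, with the groups overlapping.

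Peaks in Hoxa also stood on a raised local background. In MACS the fold of a peak is its pileup over the local background, both plus 1, so the background under a peak was computed from the deposited pileup and fold. For Hoxa peaks the median background was 1.89, 1.90 and 1.70 times the list median in WT 2, 4 and 6, and 1.41, 1.11 and 1.62 times in KO 1, 2 and 4, whereas for Hoxd peaks it was 0.848, 0.984 and 0.893 in WT and 0.728, 0.539 and 0.799 in KO. Every library had a higher background in Hoxa than in Hoxd. Each WT library stood above each KO library in Hoxa, Hoxb and Hoxd, and not in Hoxc. How often the genotypes separate in this way over all regions is not given here. The peaks behind these medians are those called in each library, for Hoxa 13, 16 and 13 in WT and 8, 7 and 11 in KO. The genotypes are thus measured over unlike sets of peaks. The deposited fold of Hox peaks had a median of 4.57 to 4.75 in the WT libraries and 5.36 to 6.25 in the KO libraries, against 6.19 to 6.32 and 6.07 to 6.60 for whole lists. The order of the clusters by height, given above, was taken over shared regions, and that by fold over every called peak of a library. Over every called peak Hoxa had the highest median scaled pileup in all libraries but KO 4 (0.913, against 1.3 in Hoxb). By fold over background the order differed. The median Hoxa fold was the lowest of the 4 clusters in every WT library (3.92, 3.72 and 4.14, against 4.98, 5.04 and 4.74 in Hoxb) and in KO 4 (3.97). It was the highest in KO 1 and KO 2 (6.08 and 7.38).

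In Hoxb the shared regions ran from Hoxb2 to the stretch between Hoxb8 and Hoxb9. At Hoxb4, whose protein is known for expanding blood stem cells, the region chr11:96318190-96319299 had a scaled pileup of 1.71, 1.74 and 1.41 in WT and 1.35, 1.0 and 1.39 in KO. A region between Hoxb4 and Hoxb5, chr11:96311140-96312105, inside the Hoxb3 span, had 1.36, 1.89 and 1.76 in WT and 1.45, 1.19 and 1.3 in KO. That at Hoxb6, chr11:96294495-96295051, which also overlapped the antisense gene Hoxb5os, had 2.00, 1.52 and 1.55 in WT and 1.2, 1.12 and 1.3 in KO. The groups did not overlap at Hoxb4 and Hoxb6, and overlapped between them.

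The 2 outer shared regions of Hoxb differed in height. Between Hoxb8 and Hoxb9, at chr11:96278597-96279122 and 279 bp from Hoxb8, scaled pileup was 1.43, 1.63 and 1.14 in WT and 1.3, 1.31 and 1.43 in KO, and the groups overlapped. At Hoxb2, a hindbrain gene, the region chr11:96352658-96353647 had only 0.714, 0.852 and 0.724 in WT and 0.55, 0.5 and 0.609 in KO. It was low in every library and lower in each KO library than in any WT library. In the gap between Hoxb13 and Hoxb9, outside all windows, 1 further region, chr11:96234848-96235431, was called in all 6 libraries, at 0.833 ± 0.0217 in WT and 0.455 ± 0.0209 in KO (SD, n = 3 each).

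Hoxc and Hoxd had 2 shared regions each. In Hoxc6 the region chr15:102998983-102999815 had 1.32, 1.22 and 1.55 in WT and 1.2, 0.812 and 1.04 in KO. Between Hoxc8 and Hoxc9, 2633 bp from Hoxc8 and in no annotated gene, chr15:102987256-102987906 had 1.0, 1.26 and 0.828 in WT and 0.5, 0.625 and 0.652 in KO. Neither pair of groups overlapped.

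Both Hoxd regions were low and uneven between libraries. The one at chr2:74749241-74750211, in the RNA gene Haglr and 970 bp from the end of Hoxd3, had 0.643, 1.11 and 1.1 in WT and 0.8, 0.625 and 0.565 in KO. The other, chr2:74715749-74716220, within the Hoxd3 span and the antisense gene Hoxd3os1, had 0.536, 0.889 and 0.862 in WT and 0.5, 0.875 and 0.522 in KO. At both, WT and KO values were mixed and the groups overlapped.

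One position recurred between clusters. The shared regions that overlapped no annotated gene were those between Hoxa7 and Hoxa9, between Hoxb8 and Hoxb9 and between Hoxc8 and Hoxc9, each on the low-numbered side of the group 9 gene. In Hoxd no region was called between Hoxd8 and Hoxd9, and the nearest one, at chr2:74697680-74698509, called in 5 libraries, covered the start of Hoxd9 itself. This likeness was noticed in the map and was not tested.

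**Figure D3:**
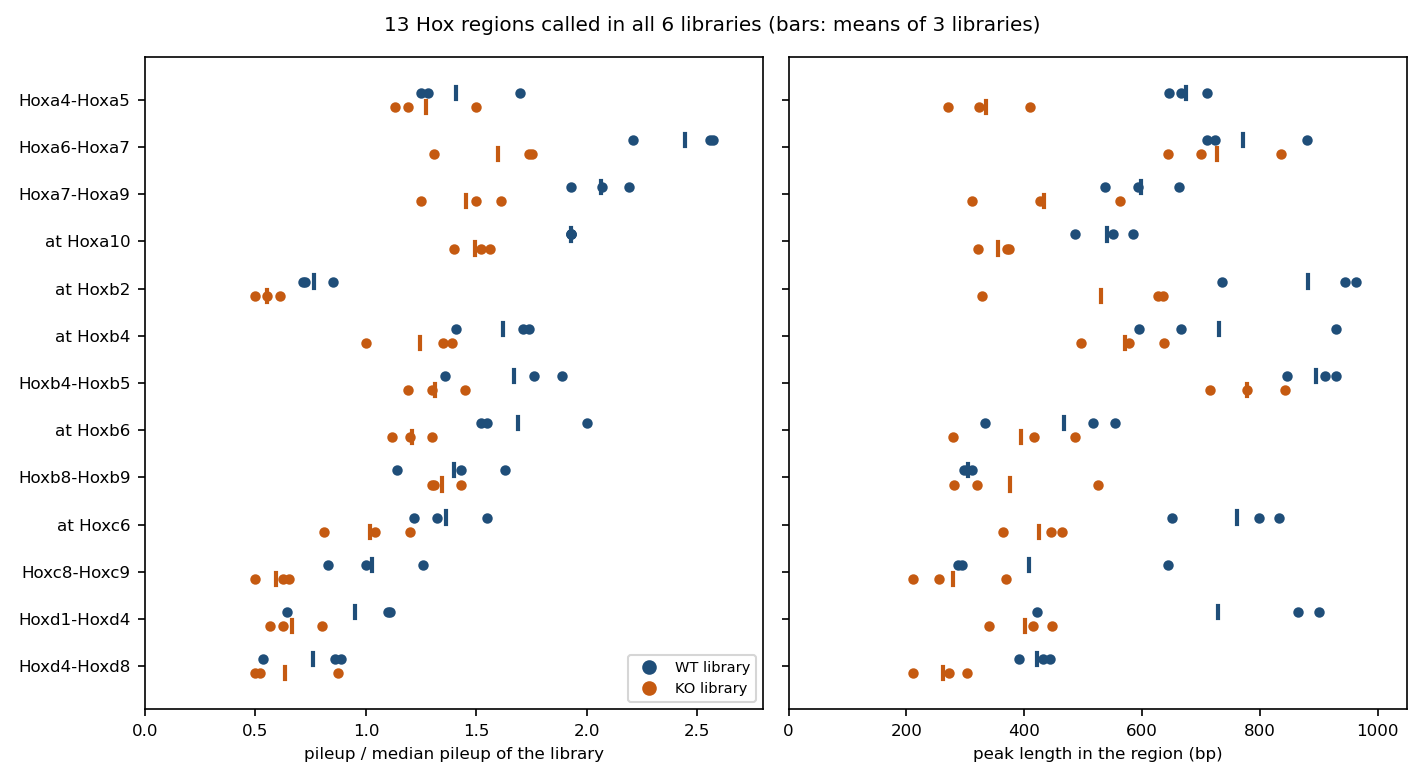
Scaled pileup (left) and summed peak length in bp (right) of each library at 13 of the 14 regions called in all 6 libraries, ordered by cluster from the low-numbered end; points are libraries, blue for WT and orange for KO, and short bars are means of 3. The highest points are the WT libraries between Hoxa6 and Hoxa7, at 2.21 to 2.57, and the lowest heights are at Hoxb2 and in Hoxc and Hoxd.

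The Hox promoters at hand were mostly outside these regions. RefSeq promoter sequence (GRCm38.p6, 300 bases around the gene start) was at hand for 22 of the 39 genes. These were all Hoxd genes, most Hoxa genes, Hoxb1, Hoxb4 and Hoxb8 of Hoxb, and Hoxc4 of Hoxc. Hoxb2, Hoxb6 and Hoxc6, whose spans overlap a shared region, were not among them. The shares that follow therefore do not stand for all Hox promoters. A merged region called in any library touched the promoter of 7 of the 22 genes, 31.8%. A merged region called in all 6 touched that of 2, 9.09%. The same shares were 43.4% and 38.0% of 27025 genes. The 250 bases before the gene start are printed, 5′ to 3′ on the gene's strand. They are given for both genes touched by a merged region called in all 6 libraries, Hoxb4 and Hoxa10. Another 3 were chosen after their values were seen. There a merged region called in 5 libraries (Hoxa3, Hoxd9) or in the WT libraries alone (Hoxa11) lay over the start. Peaks of single libraries are mostly shorter than the merged region and need not reach the promoter or the start. At Hoxa10 the merged region overlaps only 2 of the 300 promoter bases. Capitals mark bases inside the merged region. They cover the last 77 bases before Hoxb4, the last 83 before Hoxd9 and all 250 before Hoxa3 and Hoxa11. There are none for Hoxa10, whose region begins 48 bp behind the start.

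Hoxb4, chr11:96318017-96318266, + strand: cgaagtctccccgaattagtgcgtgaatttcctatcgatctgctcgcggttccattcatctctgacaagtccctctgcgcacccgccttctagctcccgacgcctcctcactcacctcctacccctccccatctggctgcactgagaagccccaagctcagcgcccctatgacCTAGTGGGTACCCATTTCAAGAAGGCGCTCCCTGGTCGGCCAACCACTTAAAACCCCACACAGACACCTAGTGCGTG
Hoxa10, chr6:52240855-52241104, - strand: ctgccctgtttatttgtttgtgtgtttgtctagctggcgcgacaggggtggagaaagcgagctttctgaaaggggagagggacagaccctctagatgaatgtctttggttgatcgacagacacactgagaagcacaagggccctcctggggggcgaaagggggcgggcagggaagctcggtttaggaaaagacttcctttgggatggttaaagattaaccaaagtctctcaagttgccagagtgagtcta
Hoxa3, chr6:52213068-52213317, - strand: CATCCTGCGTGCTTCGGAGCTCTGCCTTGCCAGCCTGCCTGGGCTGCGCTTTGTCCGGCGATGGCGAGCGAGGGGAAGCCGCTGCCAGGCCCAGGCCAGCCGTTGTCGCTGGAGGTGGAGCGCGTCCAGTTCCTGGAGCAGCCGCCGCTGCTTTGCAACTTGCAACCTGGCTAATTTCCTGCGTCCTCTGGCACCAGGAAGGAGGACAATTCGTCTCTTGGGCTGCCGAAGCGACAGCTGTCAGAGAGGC
Hoxd9, chr2:74697513-74697762, + strand: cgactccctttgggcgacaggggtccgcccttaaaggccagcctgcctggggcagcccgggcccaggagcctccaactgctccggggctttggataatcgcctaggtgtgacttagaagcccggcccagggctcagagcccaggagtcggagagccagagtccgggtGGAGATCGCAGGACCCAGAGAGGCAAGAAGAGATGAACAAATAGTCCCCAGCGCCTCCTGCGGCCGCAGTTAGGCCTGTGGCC
Hoxa11, chr6:52245811-52246060, - strand: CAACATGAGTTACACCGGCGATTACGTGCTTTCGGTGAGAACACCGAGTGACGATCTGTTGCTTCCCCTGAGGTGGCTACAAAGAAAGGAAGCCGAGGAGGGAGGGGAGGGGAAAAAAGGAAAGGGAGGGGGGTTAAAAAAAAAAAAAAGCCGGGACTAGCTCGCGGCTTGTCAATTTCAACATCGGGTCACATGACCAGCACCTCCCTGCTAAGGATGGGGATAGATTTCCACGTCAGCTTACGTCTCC

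At these starts the accessible stretch did not sit in the same place. The region at Hoxb4 ran from 77 bp before to 1032 bp behind the start, with its median summit 359 bp behind it. At Hoxd9 it ran from 83 bp before to 746 bp behind, with the median summit 115 bp behind the start. At Hoxa3 it was centred on the start, with the median summit at position -8. At Hoxa11 most of it lay before the start, from position -428 to position 47 counted from the start.

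The promoters were rich in CpG. The 24 Hox promoter entries had a median GC content of 57.7% and 14.5 CpG, against 52.7% and 7 over all 32851 entries of the same length. Searched on both strands, the E-box letters CAGCTG were in 4 of 24 Hox entries (16.7%, all entries 16.3%) and the Meis letters TGACAG in 2 (8.33%, all 19.2%). In Hoxa3 these overlap, starting 16 and 13 bases before the gene start, within the capitals. The letters TGATNNAT, read by Hox proteins with TALE cofactors, were in 4 (16.7%, all 8.85%), TATAAA in 4 (16.7%, all 13.6%) and TGTGGT of Runx factors in 1 (4.17%, all 16.8%). The Ets letters CCGGAAG (all 8.86%) were in none, and neither was a core motif of CTCF (all 2.43%).

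The clusters also carry microRNA genes, which are shown because their distance from open chromatin differed within families of the same seed. Mature RefSeq sequences follow, with the seed (bases 2 to 8) in capitals. The first pair share the seed ACCCUGU, and the second pair AGGUAGU.

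miR-10a-5p: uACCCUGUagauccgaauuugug
miR-10b-5p: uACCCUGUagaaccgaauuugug
miR-196a-5p: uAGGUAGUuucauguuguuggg
miR-196b-5p: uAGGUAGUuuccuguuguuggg

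Mir10a, beside Hoxb4 and within the Hoxb3 span, lay 916 bp from the shared Hoxb4 region. Mir10b, within the Hoxd4 span, lay 9.85 kb from the nearest shared region. In the other family Mir196b, between Hoxa9 and Hoxa10, lay 8.07 kb from a shared region, Mir196a-1 beside Hoxb9 13.3 kb and Mir196a-2 between Hoxc9 and Hoxc10 13.8 kb. Measured to a region of any library, the hairpin of Mir196b lay inside one called in 3 libraries (scaled pileup 0.778 in WT 4, 0.9 in KO 1 and 0.739 in KO 4), Mir196a-1 lay 3264 bp from one called in 4, and Mir196a-2 lay 2939 bp from one called in 1.

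Fewer Hox peaks were called in every KO library. The windows held 40, 44 and 41 peaks in WT 2, 4 and 6 and 24, 21 and 23 in KO 1, 2 and 4, or 41.7 ± 2.08 and 22.7 ± 1.53 (SD, n = 3 each). The groups were far apart, and the ratio of 0.544 was below the ratio of the whole lists, 0.756. Per 10000 peaks of each list the Hox windows held 7.71 ± 0.182 in WT and 5.56 ± 0.154 in KO, a ratio of 0.721. The same ratio was 0.791 for 63 other homeobox genes of development, 1.01 for the T cell and Treg markers and 1.02 for all protein-coding genes. In lists of equal length, the 37266 most significant peaks of each library, the Hox counts were 19, 22 and 22 in WT and 21, 21 and 19 in KO (21.0 ± 1.73 and 20.3 ± 1.15), and the difference of 19 peaks shrank to less than 1.

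Each cluster had fewer peaks in the KO lists. Hoxa had 13, 16 and 13 peaks in WT and 8, 7 and 11 in KO. Hoxb had 15, 13 and 15 in WT and 9, 8 and 6 in KO. Hoxc had 6, 9 and 8 against 3, 4 and 3, and Hoxd 6, 6 and 5 against 4, 2 and 3. In none of the 4 did these counts overlap between genotypes, nor did those of all protein-coding genes (41016 to 43132 in WT, 29634 to 33790 in KO). The ratio of the means went from 0.435 in Hoxc to 0.619 in Hoxa, beside 0.772 for all protein-coding genes. Per 10000 peaks of each list the genotypes overlapped in Hoxa, with 2.59 ± 0.237 in WT and 2.11 ± 0.399 in KO. They did not in Hoxb, Hoxc and Hoxd, with ratios of 0.711, 0.584 and 0.694. Neither did they over all protein-coding genes, where KO was higher (7745 ± 30.3 in WT, 7912 ± 38.1 in KO, ratio 1.02). The bases covered by Hox peaks were 19053 ± 1470 in WT and 8513 ± 763 in KO, a ratio of 0.447.

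**Figure D4:**
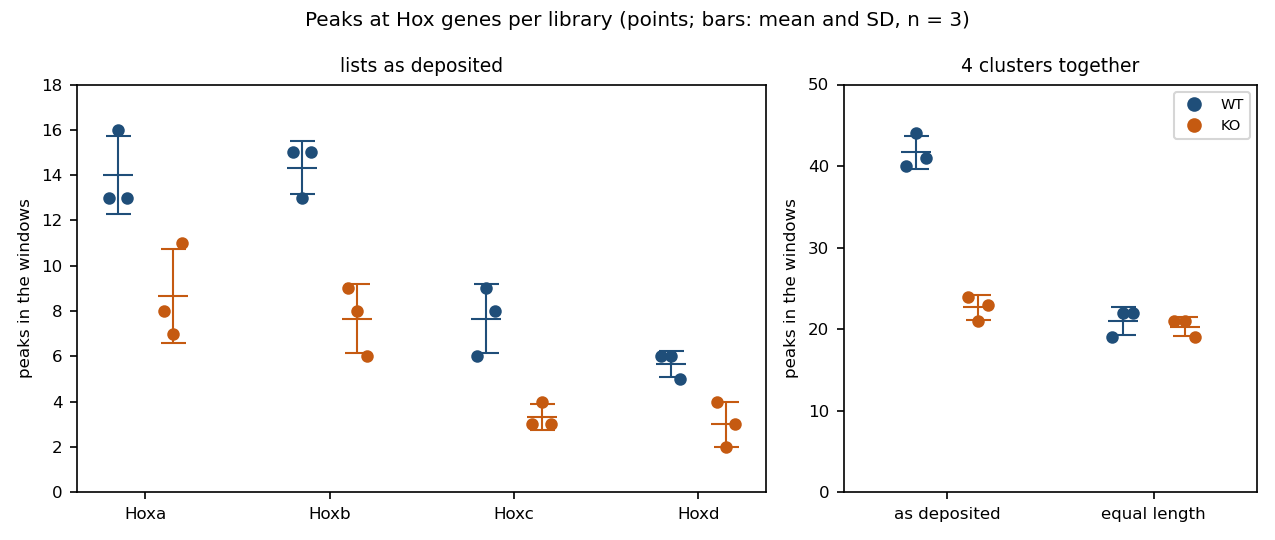
Peaks in the Hox windows per library (points) with mean and SD (n = 3), by cluster from the lists as deposited (left) and for the 4 clusters together before and after all lists were reduced to 37266 peaks (right); blue is WT and orange KO. As deposited the libraries hold 40 to 44 peaks in WT and 21 to 24 in KO, and in lists of equal length 19 to 22 in both.

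Hox regions missing from KO lists were low or of middle height. Of 31 Hox regions that every WT library had, the KO libraries shared 14, or 45.2%, beside 67.6% of all such regions. All 7 with a mean WT scaled pileup of 1.5 or more were kept by every KO library, as were 96.0% of all regions of that height. Between 1 and 1.5 it was 4 of 9, 44.4%, beside 77.8%, and under 1 it was 3 of 15, 20%, beside 35.9%. None of the Hox regions was in every KO list and absent from every WT list, against 0.0185% of all regions, and 1 region, in the window of Hoxb13, was called in KO but not in WT, by KO 2 alone.

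Called in all WT and no KO libraries were 5 of the 58 Hox regions, where 4.66% of all regions were. Of these, 3 lay in Hoxa. The highest, chr6:52217141-52217708 in Hoxa7, had a scaled pileup of 1.07, 1.33 and 1.07 in WT 2, 4 and 6. The one at the start of Hoxa11, chr6:52245763-52246238, had 0.786, 0.778 and 0.724, and the one between Hoxa11 and Hoxa13, chr6:52253446-52253965, had 0.786, 0.778 and 0.690. Apart from that in Hoxa7, these were below the height of a typical peak.

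The others were in Hoxb. The region at the start of Hoxb9, chr11:96271305-96271983, had 0.5, 0.778 and 0.655 in WT, and that in Hoxb6, chr11:96299246-96299582, had 0.857, 0.704 and 0.690. None of the 5 was left in lists of equal length. Without KO 2, the shallowest library, there were 9 such regions, and without WT 2 there were 8.

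Heights at the 14 shared regions were compared with limma across all 29419 regions called in all libraries. Scaled to the list median, 4 Hox regions were lower in KO at an adjusted p under 0.05, and none was higher; over all regions 19.1% were lower and 0.0272% higher. Between Hoxa6 and Hoxa7 scaled pileup was 2.44 ± 0.206 in WT and 1.60 ± 0.250 in KO, a log2 difference of -0.62 (SE 0.15, limma adjusted p = 0.0309). Between Hoxa7 and Hoxa9 it was 2.06 ± 0.128 and 1.45 ± 0.184, a log2 difference of -0.51 (SE 0.14, limma adjusted p = 0.0371). Between Hoxc8 and Hoxc9 it was 1.03 ± 0.217 and 0.592 ± 0.0812, or -0.78 (SE 0.18, limma adjusted p = 0.0273), and at Hoxb2 0.763 ± 0.0767 and 0.553 ± 0.0544, or -0.47 (SE 0.14, limma adjusted p = 0.0444). All means are over 3 libraries with SD.

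The size of these differences depended on the scaling. Hox regions had a median log2 difference of -0.41 and all regions one of -0.32. Divided instead by the library's median over the 29419 shared regions, the median of all regions moved to 0.03 and that of Hox regions to -0.06. No Hox region and 0.0% of all regions then passed, the lowest limma adjusted p of a Hox region being 0.36, while 1 Hox region and 3820 of all regions had an unadjusted p under 0.05. All 14 Hox differences were below 0 with the list median, 10 with the shared median and 8 by pileup over tags kept. The calls also went to 0 when any 1 of the WT libraries was left out (WT 2, WT 4 or WT 6).

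The groups did not overlap, with KO lower, at 9 of 14 Hox regions and 48.2% of all regions. With KO higher they did not overlap at 0 Hox regions and 0.197% of all regions. For a region without overlap the two-sided exact permutation p is 0.1, the smallest that 3 against 3 libraries allow. Besides the 4 called regions these included the regions at Hoxa10 (log2 difference -0.37), Hoxb4 (-0.39), Hoxb6 (-0.47) and Hoxc6 (-0.43). The smallest difference was that between Hoxb8 and Hoxb9, -0.04 (SE 0.15, limma adjusted p = 0.847).

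**Figure D5:**
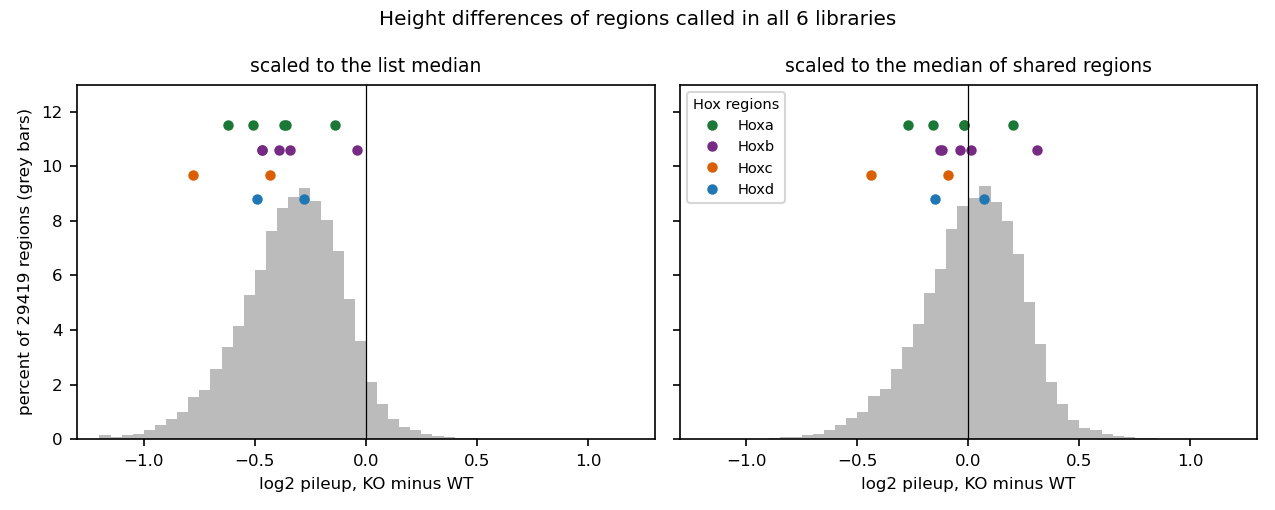
Log2 difference in pileup, KO minus WT (x axis), of the 29419 regions called in all 6 libraries (grey bars, percent of regions, with values beyond 1.2 put in the outermost bars) and of the 14 Hox regions (points by cluster, set at arbitrary heights), scaled to the list median (left) or to the median of shared regions (right). On the left all Hox points are below 0, as are 94.7% of all regions; on the right 10 of 14 are, and 44.6% of all regions.

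Peak length passed the limma threshold at regions of Hoxa and Hoxc alone, though it was lower in KO in the other clusters too. Just before the start of Hoxa4 the peak was 666, 711 and 646 bp long in WT 2, 4 and 6 and 323, 410 and 271 bp in KO 1, 2 and 4. In Hoxc6 it was 798, 833 and 651 bp in WT and 364, 464 and 445 bp in KO. At both, every WT peak was longer than every KO peak, as at 40.3% of all regions. The same held at Hoxa10, at Hoxb2 and between Hoxb4 and Hoxb5. It also held at the shared region within the Hoxd3 span (432, 444 and 391 bp in WT, 272, 303 and 211 bp in KO). The median log2 difference in length was -0.61 in Hoxa, -0.25 in Hoxb, -0.66 in Hoxc and -0.75 in Hoxd.

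By limma 3 of the 14 Hox regions were shorter in KO, where 3.25% of all regions were, and none was longer. The regions before Hoxa4 and in Hoxc6 were among the 3. The log2 differences in length were -1.03 (SE 0.17, limma adjusted p = 0.0399) before Hoxa4 and -0.84 (SE 0.15, limma adjusted p = 0.046) in Hoxc6. Length and height did not always go together: the highest region, between Hoxa6 and Hoxa7, had a length of 771 ± 94.4 bp in WT and 727 ± 98.7 bp in KO, and the region before Hoxa4 had a log2 height difference of only -0.14 (SE 0.17, limma adjusted p = 0.499).

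Over the 14 Hox regions the median log2 difference in length was -0.55, against -0.30 over all regions, and the groups did not overlap with KO shorter at 7 of 14, against 40.3%, and with KO longer at 0, against 0.238%. The median peak of the whole list was 460 to 474 bp long in WT and 409 to 449 bp in KO. With length divided by the library's median over shared regions, a scaling chosen after seeing the data, the medians were -0.21 and 0.04. Then no Hox region and 0.0% of all regions passed, with a lowest Hox adjusted p of 0.14 by limma, and 4 of the 14 changed sign. The length calls too were 0 without any 1 of the WT libraries.

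Other lists were lower in KO as well. The scaled pileup summed over all regions of the list was 40.0 to 45.2 in WT and 19.2 to 23.6 in KO for Hox genes. For the T cell and Treg markers it was 124 to 136 and 86.5 to 96.4, for B cell markers 22.8 to 23.9 and 11.1 to 16, for myeloid markers 11.8 to 13.8 and 8.56 to 11.3, for progenitor markers 10.1 to 12.2 and 5.44 to 7.26, for melanoma markers 15.8 to 18 and 13.2 to 15.0, and for stromal markers 22.6 to 25.4 and 15.4 to 16.2. WT and KO did not overlap in any of these lists, and their part in the Hox results was not tested. In sorted bulk cells, fewer cells with an open Hox region and less opening per cell cannot be told apart.

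Genes that act with or on Hox genes are set here beside the 65.5% of protein-coding genes with a region called in all 6 libraries. All 27 Polycomb genes and all 14 Trithorax and boundary genes had such a region, with median scaled pileups of 1.99 and 2.73, among them Jarid2 and Cbx7 of Polycomb with 7 such regions each and Kmt2a and Kdm6b with 6 each. Of the 9 cofactor genes that bind DNA with Hox proteins 7 did, 77.8%, Pbx2 with the most (4 regions, the highest at 4.63), and Meis1 and Meis2 did not. None of the 3 Cdx genes, which activate Hox genes in the embryo, had one. Of the 63 other homeobox genes 17 did, 27.0%, with a median scaled pileup of 1.01 over 23 regions. In KO, limma scaled to the list median called 14 of 74 Polycomb, 4 of 36 Trithorax and boundary, 2 of 15 cofactor and 8 of 23 other homeobox regions lower, and none higher, beside 19.1% of all regions lower.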

How the data were processed

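Each of the 6 ATAC-seq libraries has its own peak list, and genotypes came from the labels. The submitters' processing notes name mm10, Picard 1.88 and Bowtie2 2.3.1. Per the file headers, MACS 2.1.1.20160309 called the peaks library by library at a q-value of 0.05, shifting tags by -100 bp before extension to 200 bp so that they centre on the cut, with 1 tag per position and a background window of 10000 bp. Whether the Tn5 offset was applied is not stated. Pileup as deposited is a signal, the unscaled coverage at a summit. The deposited fold enrichment is a ratio to local background. The -log10 q-value and -log10 p-value, as deposited, give its significance, which set the stricter threshold (-log10 q of at least 5) and the equal-length lists. A deeper library calls weaker and longer peaks, and a region that is absent was not called at that depth.

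Peaks overlapping by at least 1 bp were merged into 64817 regions. A library's height in a region was its highest peak over the list's median pileup, and its length the summed peak length. Regions called in all 6 libraries were fitted on the log2 scale with limma 3.58.1 in R 4.3.3, with Benjamini-Hochberg adjustment over 29419 regions; pileup is never 0, so no pseudocount was added. In simulated data 200 regions were changed by 1 on the log2 scale, up or down in equal number. The height fit recovered 56.5% of them and the length fit 43.0%, with 7.38% and 4.44% of calls false. Of regions changed by 0.5 none was recovered. In the real data far more regions differed, nearly all lower in KO, so these shares do not give the power of the real fits. Counts over Hox windows are descriptions without a test. The region at 1 Hox gene is not reported here on its own and is left out of the map and the plot of single regions, though it is in the counts. The members and lists were chosen with earlier results of these data known. Named by rule were all regions called in all libraries, those called in all libraries of a single genotype, and regions past the threshold. Of each other list the rule named at most 4 genes, those with the most shared regions. Some other listed genes, with or without a shared region, were also named outside this rule. Lists were matched by symbol (Prac1 of the neighbour genes was not). Alternatives were other scalings, thresholds, windows, overlap rules, a limma trend, a replicate block and leaving out each library. Genes, promoters and microRNAs came from RefSeq tables for GRCm38.p6; with no genome sequence, motifs were searched only in promoters. Other steps used Matplotlib 3.10.9, SciPy 1.17.1, pandas 2.3.3, NumPy 2.4.6 and Python 3.11.15.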

Additional observations from a re-analysis of the deposited data

How the results depend on the processing

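The number of Hox regions lower in KO in height, 4, was 0 when scaled to shared regions, by tags kept or by fold enrichment; over all regions 5632 lower and 8 higher became 0 and 0, 1 and 2, and 695 and 7, and with a limma trend 10186 were lower. Higher calls were 14 with regions called in at least 2 libraries of each genotype and 16 at the stricter threshold. The 3 Hox regions lower in length became 1 when scaled to the list median and 0 when scaled to shared regions; over all regions 955 became 168 and 0, and 1531 with the trend, and 1 was higher at the stricter threshold. Leaving out 1 library in turn gave 0 to 3 Hox height calls, 0 to 5175 lower and 0 to 16 higher over all regions, 0 to 2 Hox length calls, and 0 to 1837 lower and 0 to 3 higher over all regions, each 0 without any WT library. These fits rest on fewer libraries, and the cause of the lost calls was not tested.

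The 58 Hox regions became 31 in equal-length lists, 35 in gene bodies alone and 32 within 1 kb of gene ends; the 14 shared ones became 9 at gene ends and 5 where 50% of a region had to be covered. The 5 WT-only regions became 0 in equal-length lists and 3 at gene ends, and 4 to 9 when leaving out 1 library. The 24 genes near a shared region became 9 in bodies, 9 at ends and 13 with that cover. The difference in peaks, KO minus WT, of -19.0 became -15.7 at the stricter threshold, -0.667 in equal-length lists, -16.3 with 5 kb, -12.3 in bodies and -11.0 at gene ends, and stayed at -19.8 to -17.8 when leaving out 1 library. Of 384 values for single regions 323 stayed on their side of the threshold, 57 were no longer past it and 4 came past it. Libraries 2 and 4 share a replicate number between genotypes, but their deviations did not go together (correlations -0.02 and -0.05), so the numbers are not taken to pair them; a replicate block over these 4 libraries gave 2 Hox and 4182 lower height calls and 0 length calls, and a difference of -20.0 peaks.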

Other observations

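The list of neighbour genes mixes protein-coding genes beside the clusters with RNA genes in or beside them. The matched genes without a region shared by all libraries were mostly these RNA genes. Among the listed neighbours of the clusters, 16 of 22 matched genes, 72.7%, had a region called in all 6 libraries within 10 kb, beside 65.5% of protein-coding genes, with a median scaled pileup of 1.36 over 36 regions. Skap1, an adaptor of T cell receptor signalling beyond the low-numbered end of Hoxb, had 8 such regions, the highest at a mean of 2.75, and Snx10, a sorting nexin near Hoxa, had 6, the highest at 1.38. The RNA genes Hotair in Hoxc and Hottip beyond Hoxa13 had none. These genes came from a list of neighbours that includes microRNA genes inside the clusters, so part of the regions counted are Hox regions.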
